A study of Sus scrofa with 6 samples.

Results

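The genes described here encode the machinery of fatty acid oxidation in mitochondria and peroxisomes, measured by RNA sequencing in cultured immature Sertoli cells of the pig. The members were 42 named genes, taken by gene symbol from the table of read counts, and 38 of them had a row among the 17670 genes of the table. ACAD8, ECI1, SCP2 and AMACR were not matched to a row and were not analysed here. Of the 38, 37 had enough counts to be tested, and ETFB did not. By their label the cells came from testis at 80 to 90 days of gestation. Sertoli cells are the somatic cells that nurse germ cells in the seminiferous tubule. All 6 samples were grown in medium with 10% serum. The 3 control samples are labelled only as control, and the 3 AA2P samples received 250 µM L-ascorbic acid 2-phosphate, a stable form of vitamin C, after 6 h of culture. How long the treatment lasted, whether controls had a vehicle and whether the samples of a group were separate cultures or animals are not given in the sources used here, so the spread behind the p-values is that between these samples and may be technical.

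Fatty acids are first joined to coenzyme A by acyl-CoA synthetases. Long chains then enter mitochondria on carnitine, and a spiral of dehydrogenation, hydration, a second dehydrogenation and thiolytic cleavage removes acetyl-CoA units, with electrons of the first step passed through electron transfer flavoprotein to the respiratory chain. Peroxisomes run a similar spiral on very long, branched and bile acid side chains, with oxidases in place of the first dehydrogenases. Sertoli cells are known to burn fatty acids, in part from lipid of engulfed germ cells, and to send lactate to germ cells.

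Most members changed by less than 1.5-fold with AA2P, and the acyl-CoA synthetases ACSL3 and ACSL4 moved in opposite directions. Of the 37 tested members 11 rose and 6 fell, and the other 20 did not pass the test. Over all 12701 tested genes 52.1% were called, 26.0% higher and 26.1% lower, so the members' share of 45.9% lay near the background. A call means an adjusted p under 0.05 in edgeR (quasi-likelihood F test, adjusted by Benjamini and Hochberg over all tested genes). Only 4 called members changed by at least 1.5-fold, which is 10.8% of the 37 tested. Over all tested genes 18.2% were called with a change of that size, 10.3% upward and 7.97% downward. Of these 4, 3 went up and 1 went down, the acyl-CoA synthetase ACSL4. The 3 upward genes were the acyl-CoA synthetase ACSL3, the peroxisomal oxidase ACOX2 and the coactivator gene PPARGC1A, and the last of these passed the count filter through its AA2P libraries alone. For 32 of the 37 members the 95% confidence interval of the fold change lay wholly inside 1.5-fold in either direction, against 64.9% of all tested genes. The width of an interval also depends on a gene's counts, and the members and all tested genes were not matched for counts. In 23 members the groups did not overlap, all AA2P libraries lying above the controls in 16 and below them in 7, where 59.3% of all tested genes did not overlap, 29.8% with AA2P above and 29.5% below. The median log2 fold change was 0.07 over the members and 0.00 over all tested genes.

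Many of these changes are small, and the scaling of the libraries bears on them. Levels are given as CPM, a gene's reads set against the size of its library, and that size is corrected by TMM factors, which set the bulk of genes to no change. With library totals instead, the median of all tested genes shifted up by 0.17 on the log2 scale, and 45.0% of genes were called higher and 14.4% lower. The 11 members called higher were then all still higher, with 13 more, while of the 6 called lower ACSL4 and ACAA2 were still lower and ECHS1, ETFA, PHYH and ECI2 missed the threshold. Directions below are relative to TMM scaling.

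Library totals ran from 18747307 to 23521291 counts, and 3 counts, the upper limit behind a count of 0, stood for 0.123 to 0.165 CPM, counting error alone considered. AA2P library 3 lay nearest the controls, with a mean correlation to them across genes of 0.970, against 0.959 and 0.961 for libraries 1 and 2. The Sertoli label was checked against 15 marker genes, of which 10 had a row and 7 were tested. SOX9 fell from 11.6 ± 0.648 to 2.22 ± 0.459 CPM and WT1 from 40.7 ± 4.21 to 23.8 ± 4.20 CPM (SD, n = 3), while AMH was at 36.4 ± 1.52 and 34.5 ± 2.35 CPM. DHH and INHA had at most 3 counts in every library, and NR5A1 at most 5. GATA4, FSHR, CLDN11, DMRT1 and CST9L were not matched to a row and were not analysed here. In all, 6 of the 7 tested Sertoli markers fell. The summed level of the 10 was 4490 to 4821 CPM in controls and 1336 to 1912 CPM with AA2P. Most of it came from CLU, which fell 3.25-fold, and without CLU the sum was 453 to 481 and 259 to 317 CPM. KRT18 made up most of that remainder, at 372 ± 12.5 CPM in controls and 218 ± 22.5 CPM with AA2P (SD, n = 3). Of 12 matched markers of renal tubule epithelium 10 were tested and all 10 rose, among them PAX2 and HNF4A. SLC22A6 and UMOD had at most 3 counts in every library. The summed level of the 12 went from 370.0 to 426 CPM in controls to 1179 to 1533 CPM with AA2P. LRP2, the marker of this list with the highest mean level, rose 7.94-fold, and without it the sum was 301 to 333 and 705 to 827 CPM. Both tested stromal markers fell, COL1A1 2.52-fold and COL1A2 1.48-fold, with PDGFRB at most at 3 counts, and the sum of the 4 matched went from 12348 to 13226 CPM to 8407 to 9066 CPM, nearly all of it COL1A2. Of 5 smooth muscle and peritubular markers 3 were tested, CNN1 rising, and DES (4.64-fold) and TAGLN falling, the last a call lost with library totals, and their sum went from 413 to 419 CPM to 293 to 345 CPM, with MYH11 at most at 3 counts. The one tested endothelial marker, PECAM1, rose 3.10-fold, the sum of the 2 matched going from 2.03 to 2.87 CPM to 6.08 to 8.03 CPM. The one tested macrophage marker, CD14, fell 1.39-fold, the sum of the 4 matched going from 27.0 to 29.9 CPM to 18.7 to 22.7 CPM, with CSF1R and CD163 at most at 3 counts. Of 3 matched Leydig markers STAR alone was tested and did not pass, CYP17A1 and INSL3 having at most 3 counts, and the sum was 5.58 to 5.84 CPM in controls and 6.36 to 7.38 CPM with AA2P. The one matched germ cell marker, DDX4, was at 0.146 to 0.276 CPM in controls and 0.149 to 0.288 CPM with AA2P. The part of these marker shifts in the results here was not tested. In bulk RNA, fewer cells of a type and less RNA per cell cannot be told apart.

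**Figure D1:**
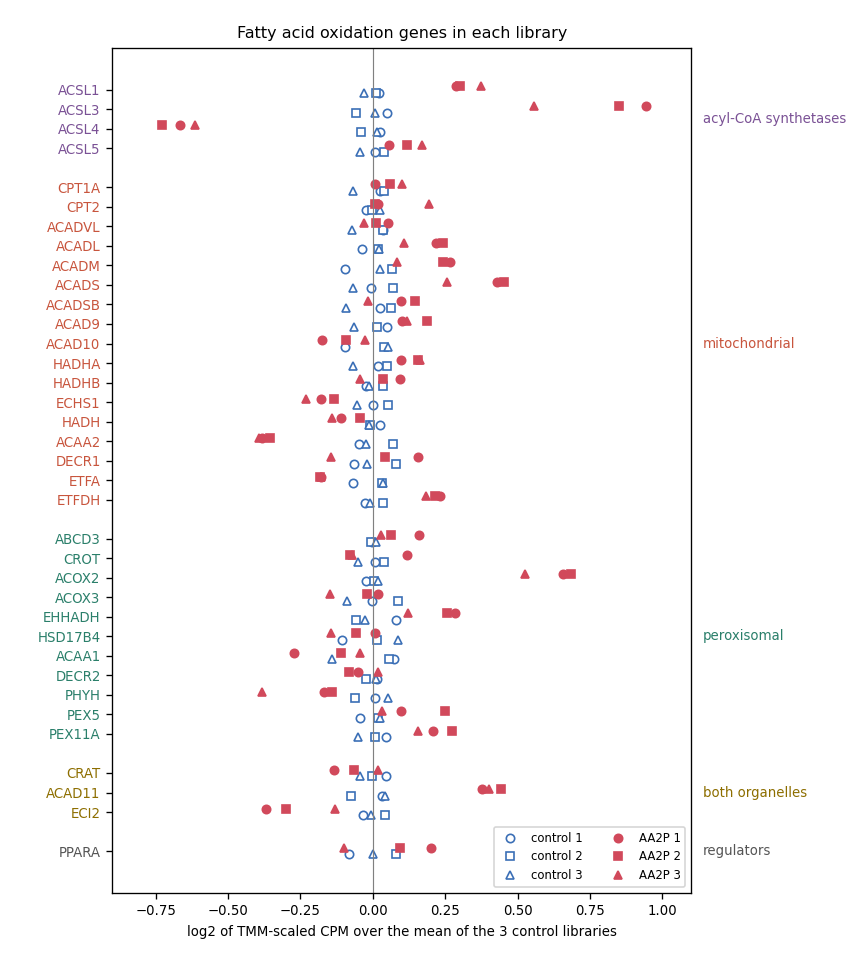
Each tested member in each of the 6 libraries, as the log2 of TMM-scaled CPM over the mean of the control libraries (open symbols control, filled symbols AA2P, PPARGC1A left off for scale). Most members sit close to 0 in all libraries, while ACSL3, ACSL4, ACOX2, ACADS, ACAD11 and ACAA2 stand away from their controls in every AA2P library, with ACAA2 nearer to 0 when library totals are used.

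The activation step showed the widest spread among the enzymes. The 4 long-chain acyl-CoA synthetases of this list differ in where they sit and in the chains they prefer. ACSL4, which prefers arachidonic acid and other polyunsaturated chains, was at 174, 166 and 173 CPM in control libraries 1 to 3 and at 108, 103 and 112 CPM in AA2P libraries 1 to 3. It was low in every AA2P library and the groups did not overlap. Its log2 fold change was -0.67 with a standard error of 0.05 (adjusted p = 1.21e-08, edgeR). ACSL3, found on the endoplasmic reticulum and on lipid droplets, went the other way, from 62.0, 57.6 and 60.3 CPM to 116, 108 and 88.2 CPM. The AA2P libraries all lay above the controls, library 3 the least, and the gene rose 1.73-fold (log2 0.79, standard error 0.08, adjusted p = 3.91e-07, edgeR).

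ACSL1, the main synthetase of tissues that burn or store fat, was at 168, 167 and 162 CPM in controls and at 203, 204 and 215 CPM with AA2P. It rose 1.25-fold without overlap between the groups (adjusted p = 3.23e-05, edgeR). ACSL5, a synthetase placed partly on mitochondria, was at 237, 242 and 229 CPM and at 245, 256 and 266 CPM. Its groups did not overlap either, but the difference of 8.43% missed the threshold (adjusted p = 0.0578, edgeR), and it passed without AA2P library 1 (adjusted p = 0.0207). The ratio of ACSL3 to ACSL4 counts within a library, which no scaling can move, was 0.356, 0.346 and 0.349 in controls and 1.07, 1.05 and 0.790 with AA2P. This and the other ratios were chosen after seeing the values and were not tested.

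None of the 4 carnitine acyltransferases of the list passed the test by edgeR, DESeq2 or limma-voom with scaling for composition, and the 95% interval of each included a log2 fold change of 0. CPT1A, the outer membrane carnitine palmitoyltransferase that controls entry of long chains, was at 277, 279 and 259.5 CPM in controls and at 273, 283 and 292 CPM with AA2P. The libraries of the groups overlapped, and the 95% interval of its log2 fold change ran from -0.05 to 0.16. CPT2, the inner membrane partner that returns the chain to coenzyme A, was at 23.3 ± 0.376 and 24.5 ± 1.80 CPM (SD, n = 3), with an interval from -0.08 to 0.24. CRAT, the carnitine acetyltransferase of mitochondria and peroxisomes, was at 154 ± 4.70 and 147 ± 7.74 CPM, and CROT, the peroxisomal carnitine octanoyltransferase, at 59.9 ± 1.90 and 59.5 ± 4.69 CPM. With library totals CPT1A, CPT2 and CROT were called higher, at log2 values of 0.23, 0.25 and 0.16, against the shift of 0.17 in all genes.

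Of 17 tested mitochondrial members 5 rose and 3 fell, a share of 47.1% beside the background of 52.1%. ACADS, ACADM, ACADL, HADHA and ETFDH rose, and ECHS1, ACAA2 and ETFA fell. All 8 changed by less than 1.5-fold, and over the 17 the log2 fold changes ran from -0.38 to 0.38 with a median of 0.06. Without control library 1 or without AA2P library 2, 3 rose in place of 5.

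Among the acyl-CoA dehydrogenases placed in mitochondria alone, 3 of the 7 tested rose, where 26.0% of all tested genes did. These enzymes take chains of different lengths, and ACAD11, placed in both organelles, is given below. ACADS, the short-chain enzyme, was at 131, 138 and 125 CPM in controls and at 177, 180.1 and 157 CPM with AA2P. All AA2P libraries were above all controls, and ACADS rose 1.30-fold (log2 0.38, standard error 0.06, adjusted p = 4.66e-05, edgeR). ACADM, the medium-chain enzyme, was at 62.5, 69.9 and 68.1 CPM and at 80.3, 79.1 and 70.8 CPM. The lowest AA2P library lay just above the highest control, and the rise of 14.8% (adjusted p = 0.0148, edgeR) missed the threshold without control library 1 (adjusted p = 0.0989) and without AA2P library 2 (adjusted p = 0.0689). ACADL, the long-chain enzyme, rose 14.1%, from 82.0, 85.2 and 85.4 CPM to 97.9, 99.7 and 90.8 CPM (adjusted p = 0.00705, edgeR).

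ACADVL, the very-long-chain enzyme at the inner membrane, was at 57.0 ± 2.45 CPM in controls and 57.5 ± 1.63 CPM with AA2P (SD, n = 3), and the interval of its log2 fold change ran from -0.11 to 0.13. The intervals of ACADS and ACADVL, 0.26 to 0.51 and -0.11 to 0.13, did not overlap, although the difference between the enzymes was not itself tested. ACADS had the highest log2 fold change of the mitochondrial members, which made it likely that these intervals would lie apart. ACADSB, which acts on a branched chain from isoleucine, was at 65.0 ± 3.62 and 68.5 ± 3.94 CPM. ACAD9, known for its part in assembly of respiratory complex I, was at 42.2 ± 1.69 and 46.4 ± 1.5 CPM (adjusted p = 0.0706, edgeR), and ACAD10 was at 28.8 ± 1.61 and 27.0 ± 1.39 CPM. ACADVL, ACADSB, ACAD9 and ACAD10 did not pass the test.

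Of the later steps for shorter chains ACAA2 and ECHS1 fell. ACAA2, the mitochondrial thiolase that cleaves medium chains, was at 106, 115 and 108 CPM in controls and at 84.0, 85.7 and 83.3 CPM with AA2P. The AA2P libraries lay close together and below every control, a fall of 1.30-fold (log2 -0.38, standard error 0.05, adjusted p = 1.28e-05, edgeR), and with library totals the log2 fold change was -0.21. ECHS1, the short-chain enoyl-CoA hydratase, went from 135, 140.3 and 130.0 CPM to 119, 123 and 115 CPM. Its groups did not overlap, and it fell 1.13-fold (adjusted p = 0.00709, edgeR), but the call was lost without control library 2 (adjusted p = 0.0541) and with library totals, where its log2 fold change was -0.01. HADH, the hydroxyacyl-CoA dehydrogenase of medium and short chains, was at 99.4 ± 1.43 and 92.9 ± 3.26 CPM (SD, n = 3) and did not pass the test.

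HADHA and HADHB, the subunits of the trifunctional protein that runs the last steps on long chains, were measured side by side. HADHA was at 186, 190.0 and 175 CPM in controls and at 197, 204 and 206 CPM with AA2P. It rose 10.2% (adjusted p = 0.0271, edgeR), but missed the threshold without control library 1 (adjusted p = 0.0646), control library 3 (adjusted p = 0.148) or AA2P library 2 (adjusted p = 0.0850). HADHB was at 121 ± 2.72 and 123 ± 5.95 CPM (SD, n = 3), with groups that overlapped. The ratio of HADHA to HADHB counts was 1.52 ± 0.0523 in controls and 1.64 ± 0.116 with AA2P (SD, n = 3), with values from 1.46 to 1.56 and from 1.52 to 1.76 that overlapped. DECR1, the dienoyl-CoA reductase needed for polyunsaturated chains, was at 35.7 ± 1.87 and 36.2 ± 3.77 CPM.

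The ratio of ACADS to ACAA2 counts, set at the first and the last step of the spiral, was 1.24, 1.20 and 1.16 in control libraries 1 to 3 and 2.11, 2.10 and 1.88 in AA2P libraries 1 to 3. It was higher in every AA2P library, AA2P library 3 included, and scaling has no part in it. ACADS and ACAA2 had the highest and lowest log2 fold change of the mitochondrial members, so the choice fixed that this ratio would shift.

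Of the electron carriers of the first step ETFDH rose and ETFA fell. ETFDH, the membrane oxidoreductase that passes electrons to ubiquinone, was at 83.3, 87.1 and 84.4 CPM in controls and at 99.7, 98.7 and 96.5 CPM with AA2P, a rise of 15.7% without overlap (adjusted p = 0.00209, edgeR). ETFA, the alpha subunit of electron transfer flavoprotein, was at 113, 121 and 121 CPM and at 105, 104 and 104 CPM, and fell 1.13-fold (adjusted p = 0.00658, edgeR), a call lost with library totals at a log2 fold change of -0.01. The ratio of ETFDH to ETFA counts was 0.718 ± 0.0210 in controls and 0.941 ± 0.0158 with AA2P (SD, n = 3), with no overlap. ETFB, the beta subunit that pairs with ETFA in the working protein, had 2, 7 and 1 counts in controls and 10, 8 and 11 with AA2P. It was left out by the filter on low counts, and without that filter it had an adjusted p of 0.0494 by edgeR. ETFA had 2089 to 2543 counts in the same libraries. How reads were assigned to ETFB is not given in the sources used here, so its counts are uncertain as a measure of its expression.

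**Figure D2:**
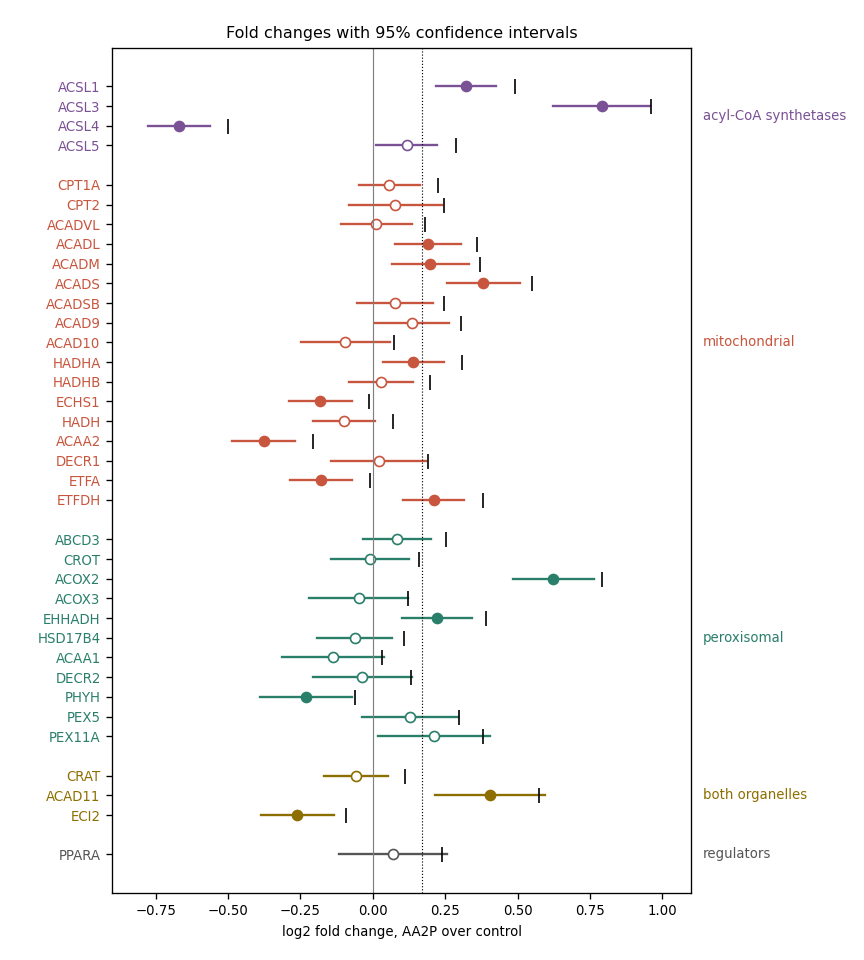
Log2 fold change of each tested member, AA2P over control, with its 95% confidence interval (circles, filled where called, PPARGC1A left off for scale). Vertical ticks give the value with library totals and the dotted line the median of all tested genes on that scale, 0.17. ACADS and ACAA2 lie at 0.38 and -0.38, ACSL3 and ACSL4 at 0.79 and -0.67, and the ticks of ECHS1 and ETFA fall at -0.01.

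Among the peroxisomal members a single oxidase stood out by size. Of 11 tested members 2 rose and 1 fell, a share of 27.3% beside the background of 52.1%, and the median log2 fold change was -0.01, against 0.06 for mitochondrial members. With library totals the medians were 0.16 and 0.23. ACOX2, the oxidase that starts the shortening of branched chains and of bile acid side chains, was at 27.8, 28.3 and 28.5 CPM in controls and at 44.5, 45.3 and 40.6 CPM with AA2P. The controls lay within 1 CPM of each other and every AA2P library was above them. ACOX2 rose 1.54-fold (log2 0.62, standard error 0.07, adjusted p = 6.43e-07, edgeR). ACOX3, the other branched-chain oxidase of the list, was at 21.8 ± 1.33 and 21.1 ± 1.25 CPM (SD, n = 3) and did not pass the test.

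EHHADH, the peroxisomal bifunctional enzyme for straight chains, was at 123, 111 and 114 CPM in controls and at 141, 139 and 126 CPM with AA2P, a rise of 16.6% (adjusted p = 0.00392, edgeR). The lowest AA2P library, library 3, lay above the highest control. HSD17B4, the bifunctional enzyme that takes branched chains and bile acid intermediates, was at 92.1 ± 6.21 and 88.2 ± 4.62 CPM (SD, n = 3). ACAA1, the peroxisomal thiolase, was at 26.4 ± 2.13 and 24.0 ± 1.93 CPM. Neither passed the test, and the groups overlapped for each. The ratio of ACOX2 to ACAA1 counts was 1.00, 1.03 and 1.19 in controls and 2.04, 1.86 and 1.59 with AA2P.

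PHYH, which starts the alpha oxidation of phytanic acid, was the peroxisomal member that fell. It was at 35.1, 33.4 and 36.2 CPM in controls and at 31.0, 31.7 and 26.7 CPM with AA2P, lower by 1.17-fold (adjusted p = 0.0160, edgeR). The call was lost without AA2P library 3, where the log2 fold change was -0.15 (adjusted p = 0.0779), without control library 3 (adjusted p = 0.0654) and with library totals (log2 -0.06). DECR2, the peroxisomal dienoyl-CoA reductase, was at 17.3 ± 0.249 and 16.9 ± 0.610 CPM (SD, n = 3).

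The transporter and the biogenesis factors did not pass the test. ABCD3, an ABC transporter that carries acyl-CoA into the peroxisome, was at 66.0, 66.0 and 66.7 CPM in controls and at 74.0, 69.1 and 67.5 CPM with AA2P, with no overlap but an adjusted p of 0.220 (edgeR). PEX5, the receptor that imports matrix enzymes, was at 22.7 ± 0.594 and 24.8 ± 1.95 CPM (SD, n = 3). PEX11A, which acts in peroxisome division and is known as a target of PPAR alpha, was at 12.0, 11.7 and 11.2 CPM and at 13.4, 14.1 and 12.9 CPM. Its difference of 15.7% missed the threshold (adjusted p = 0.0641, edgeR) and passed without AA2P library 3 (adjusted p = 0.0478).

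Among the 3 measured members placed in both organelles, ACAD11 rose, ECI2 fell and CRAT did not pass. ACAD11, an acyl-CoA dehydrogenase, was at 11.6, 10.7 and 11.7 CPM in controls and at 14.7, 15.4 and 15.0 CPM with AA2P, a rise of 1.32-fold (log2 0.41, standard error 0.09, adjusted p = 0.00117, edgeR). ECI2, the enoyl-CoA isomerase for unsaturated chains, was at 168, 177 and 171 CPM and at 133, 139.6 and 157 CPM. It fell 1.20-fold without overlap (adjusted p = 0.00149, edgeR), AA2P library 3 lying nearest the controls, and the call was lost with library totals (log2 -0.09).

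Mitochondrial and peroxisomal members were also set against each other inside each library. Summed counts of the 11 peroxisomal members over those of the 18 mitochondrial members with a row gave ratios of 0.302, 0.290 and 0.307 in controls and 0.318, 0.306 and 0.298 with AA2P. These ranges overlapped. With the 3 members of both organelles added to the peroxisomal sum the ratio was 0.503 ± 0.0116 in controls and 0.486 ± 0.00744 with AA2P (SD, n = 3), again with overlap. A sum follows its genes with most reads, so it can hide members that move apart. Read as a share of all counts, mitochondrial members took 0.153% to 0.161% of control and 0.176% to 0.185% of AA2P libraries, and peroxisomal members took 0.0466% to 0.0470% and 0.0527% to 0.0582%, on a scale where the bulk of genes also moved up.

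**Figure D3:**
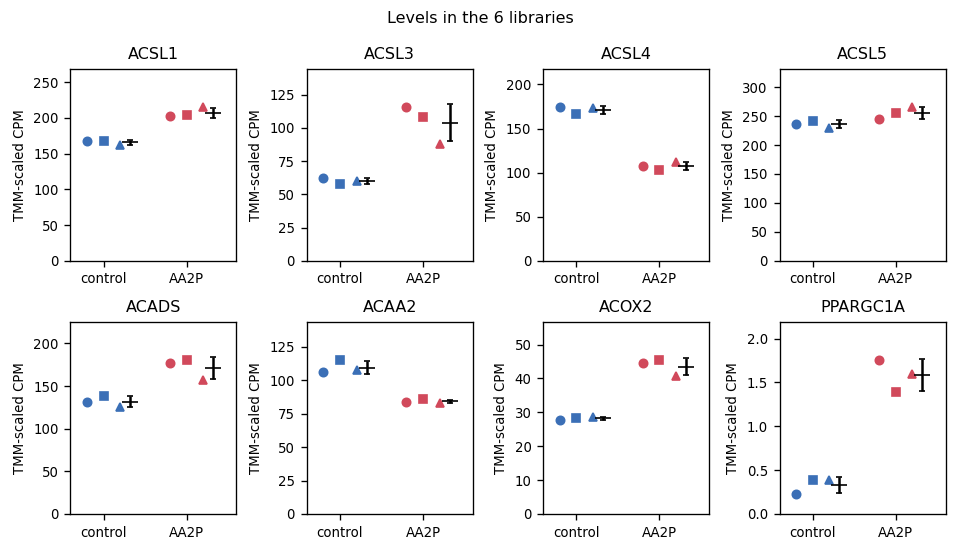
TMM-scaled CPM of 8 members in the control (blue) and AA2P (red) libraries, with the mean and SD of 3 libraries beside each group and every axis from 0. ACSL3 is higher and ACSL4 lower in every AA2P library, and PPARGC1A stays at or below 1.75 CPM in all libraries.

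Of the regulators PPARA did not pass the test and PPARGC1A was called from few counts. PPARA encodes the fatty acid receptor that drives many oxidation genes, and it was at 20.3, 22.7 and 21.5 CPM in controls and at 24.7, 22.9 and 20.1 CPM with AA2P. The groups overlapped, and the interval of its log2 fold change ran from -0.12 to 0.26. PPARGC1A, which encodes the coactivator PGC-1 alpha of mitochondrial and oxidative genes, had 5, 7 and 8 counts in controls and 35, 28 and 39 with AA2P. That is 0.333 ± 0.0934 and 1.58 ± 0.183 CPM (SD, n = 3), near the level of 3 counts in controls. The fitted log2 fold change was 2.25 with an interval from 1.58 to 2.91 (adjusted p = 1.54e-05, edgeR), and since the gene passed the filter through its AA2P libraries alone, a difference was a condition of its being tested.

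Genes that work beside the members were taken from 5 further lists. Of 73 genes 57 were tested, 19 rose and 13 fell, or 56.1% beside the background of 52.1%, with a median log2 fold change of 0.07. In the list of uptake and entry 3 of 7 rose and 2 fell (71.4% called). FABP3, a cytosolic fatty acid carrier, rose from 253 ± 9.38 to 332 ± 9.51 CPM (SD, n = 3). SLC27A1, a fatty acid transport protein, and MLYCD, which breaks down the CPT1 inhibitor malonyl-CoA, rose 1.34-fold and 1.47-fold. SLC27A2, a very-long-chain acyl-CoA synthetase of peroxisomes, fell 1.20-fold, a call lost with library totals.

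Of 11 other peroxins, which build the organelle, 2 rose and 1 fell (27.3% called). PEX3, needed for membrane protein insertion, rose 1.38-fold, and PEX6, an ATPase of receptor recycling, rose 1.28-fold. PEX7, the import receptor that serves PHYH and ACAA1, fell 1.17-fold from 16.2 ± 0.873 to 13.8 ± 0.421 CPM (SD, n = 3), and this call too was lost with library totals.

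Of 19 genes listed as other peroxisomal proteins 9 rose and 5 fell, a share of 73.7% beside the background of 52.1%. Among the 5 was ABCD4, whose place in peroxisomes is doubtful. TYSND1, the protease that trims enzymes of peroxisomal beta oxidation, went from 32.3, 34.1 and 29.7 CPM to 51.9, 57.9 and 58.0 CPM, a rise of 1.75-fold (adjusted p = 5.40e-08, edgeR). PECR, a trans-2-enoyl-CoA reductase, rose 1.78-fold, from 47.2 ± 0.366 to 84.1 ± 9.33 CPM (SD, n = 3). FAR1, which makes the fatty alcohol for ether lipids, went from 206, 228 and 230.5 CPM to 143, 132 and 136 CPM, a fall of 1.62-fold (adjusted p = 2.34e-08, edgeR). LONP2, the peroxisomal Lon protease, fell 1.25-fold.

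Among partners and targets of PPAR receptors 2 of 10 rose and 4 fell (60.0% called). The known targets called in this list were ANGPTL4 and PLIN2, which fell, and PDK4, which rose from few counts. Members and genes of the other lists were not counted here as targets. ANGPTL4, a lipoprotein lipase inhibitor that is also induced in hypoxia, was at 23.4, 22.0 and 22.9 CPM in controls and at 9.81, 10.4 and 11.7 CPM with AA2P, a fall of 2.14-fold (adjusted p = 3.51e-08, edgeR). The lipid droplet coat PLIN2 fell 1.21-fold, a call lost with library totals. PPARD, which encodes the widely expressed PPAR delta, rose 1.35-fold, from 40.5 ± 1.54 to 54.7 ± 5.29 CPM (SD, n = 3). PDK4, the pyruvate dehydrogenase kinase of fasting, had 5, 2 and 4 counts in controls and 20, 21 and 18 with AA2P, so its rise rests on few counts and on a filter passed through the AA2P libraries.

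In the list of ketone body, propionate and amino acid steps 3 of 10 rose and 1 fell (40.0% called). ACAT1, the mitochondrial thiolase of ketone bodies and isoleucine, went from 105, 116 and 115 CPM to 67.2, 63.4 and 61.0 CPM. It fell 1.75-fold without overlap (adjusted p = 6.68e-09, edgeR). GCDH and IVD, dehydrogenases of the acyl-CoA family that serve lysine and leucine breakdown, rose 1.42-fold and 1.24-fold, and BDH1, a ketone body dehydrogenase, rose 1.32-fold.

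**Figure D4:**
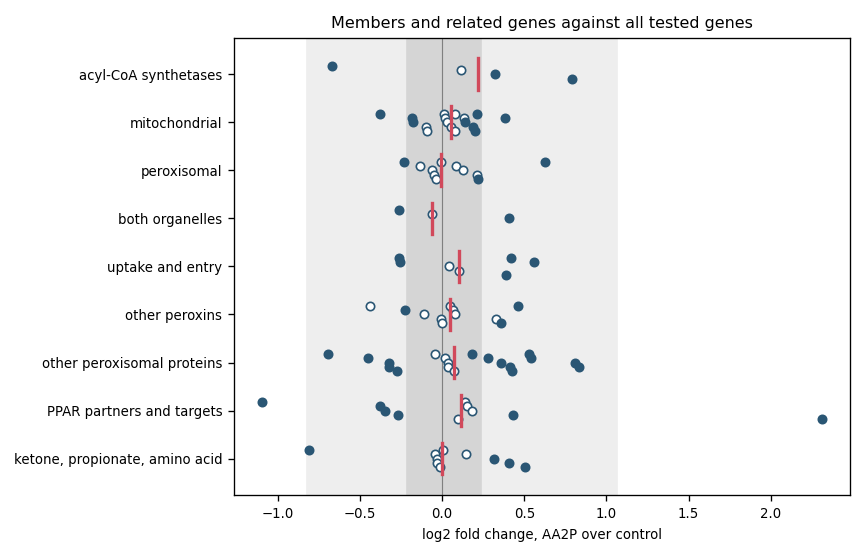
Log2 fold changes, AA2P over control, of tested members by place (the regulators PPARA and PPARGC1A left off) and of related genes by list (circles, filled where called), with the median of each set as a red bar and the middle 50% and 90% of all tested genes as dark and light bands. The medians shown lie between -0.06 and 0.22, and ACSL4, ACSL3, FAR1, ACAT1, ANGPTL4 and PDK4 are among the genes shown farthest from 0. With library totals the median of all genes moves by 0.17.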

How the data were processed

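Total RNA of 3 control and 3 AA2P samples was sequenced in 1 lane of an Illumina HiSeq X-Ten, per the labels' protocols. Reads were made with bcl2fastq and aligned with HISAT2 2.0.5, going by the names in the submitters' processing notes. The counting tool, strand setting, annotation and genome build are not given in the sources used here, so genes with near-identical copies or overlapping neighbours are uncertain and no coordinates are printed. The file deposited by the authors holds raw read counts per gene. A symbol was found for 13141 of 17670 pig Ensembl identifiers.

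Tests used R 4.3.3 and edgeR 4.0.16: TMM factors, filterByExpr given the group, a quasi-likelihood F test with group as the sole term, and p-values adjusted by Benjamini-Hochberg over 12701 genes at a threshold of 0.05. Standard errors were derived from the log2 fold change and F. Within each group, every pair of libraries had a chi-square per degree of freedom above sampling noise (2.63 to 11.5), so none was taken as a copy. No list was tested as a set. Placement of members in organelles followed textbook knowledge. All matched members are described. From each related list up to 4 called genes with the smallest p are named. SLC22A6, UMOD, LRP2, DHH, INHA, NR5A1, CLU, KRT18 and COL1A2 were named after their values were seen. Members and lists were chosen with earlier results of these data known. On simulated counts for AA2P against control, 12606 genes were tested and few were changed. Recovery was 19 of 50 for log2 changes of 0.25 and 42 of 50 for 0.5. It was 45 of 48 for 1 and 48 of 48 for 2, and 6.67% of calls were false. The simulation gave 165 calls where the data gave 6615, so its p-value cutoff was stricter. Its recovery and false share therefore do not carry over to these data. Alternatives used DESeq2 1.42.0 and limma 3.58.1. Protein targeting signals and promoter motifs were not analysed here.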

Additional observations from a re-analysis of the deposited data

How the results depend on the processing

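Scaled by library totals, 5720 of all genes were called higher and 1824 lower, 24 and 2 members, 12 and 1 mitochondrial members, 6 and 0 peroxisomal members (0 at an unadjusted p under 0.05, and 1 called by DESeq2 with its own scaling), and 31 and 6 related genes, with medians of 0.23 (mitochondrial) and 0.16 (peroxisomal). CROT, not called otherwise, became higher at 0.16 (adjusted p of 0.0425 by edgeR). At an adjusted p of 0.01, 3 mitochondrial members were higher and 0 peroxisomal members lower by edgeR, with 1 at an unadjusted p under 0.05. With members of both organelles counted as peroxisomal, 2 were lower. Leaving out 1 library in turn gave 3 to 6 mitochondrial members higher and 0 to 1 peroxisomal member lower, and 9 to 12 members higher and 5 to 6 lower in all. DESeq2 size factors, the DESeq2 Wald test and no filter on low counts kept all 37 tested members on their side of the threshold, and a filter of 1 CPM in 3 libraries or limma-voom brought in ACSL5 alone (adjusted p of 0.0495 and 0.0498). Samples with the same number did not deviate together (correlations of -0.04, -0.02 and -0.06). The origin of the samples is not given, so this cannot settle whether the numbers pair them. With the replicate block 10 members were higher and 6 lower, HADHA missing the threshold at an adjusted p of 0.0524, and 3094 of all genes were higher and 3110 lower. Beyond the shift that library totals give by construction, the cause of these moves was not tested. PPARGC1A in controls and ETFB in all libraries rest on few counts, so counting error is large for both, and why ETFB has few was not tested.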
